A study of Mus musculus with 2 samples.

Results

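Among the tumor cells of one mouse small cell lung cancer, a small set of cells carried transcripts of Anxa1, Ifi27l2a, Dusp26 and Tspan8, and this set is described here. The cells were chosen by these UMI counts (unique molecular identifiers, 1 per captured transcript). A barcode of tumor TKO1 was eligible if it had more than 500 detected genes, fewer than 10 UMIs of the club cell gene Scgb1a1 and fewer than 5 UMIs over the macrophage genes Lyz2, C1qa, C1qb, C1qc, Tyrobp and Fcer1g. An eligible cell with 3 or more UMIs over the 4 genes was a member, and an eligible cell with 0 of them was a zero cell. Of 4514 barcodes of TKO1, 3005 were eligible, 165 were members, 2497 were zero cells and 343 held 1 or 2 UMIs. The members were thus 5.49% of the eligible cells (exact Clopper-Pearson 95% interval 4.70 to 6.37). The 2 tables together hold 8330 barcodes.

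Both tumors, TKO1 and TKO2, came from TKO mice, which lack Rb1, Trp53 and p130 (Rbl2) in the cells that received Cre, on a mixed 129/SvOla, 129/SVJ and C57BL/6 background with the Rosa26mT/mG reporter. Cre was delivered to the lung by an adenovirus with a CMV promoter, so that recombination is not limited to 1 lung cell type, at 8 weeks of age. About 7 months later, at 8 to 9 months, 1 tumor was taken from each of 2 mice, live DAPI-negative cells were sorted, and 1 10x Chromium library was made per tumor. No untreated lung was included, and with 1 library per tumor no comparison has a p-value. TKO1 held 5285038 UMIs and TKO2 8291430. The 2 libraries shared 22 barcodes, of which 0 were members in either tumor, 10 were zero cells of TKO1 and 21 were zero cells of TKO2. All intervals given cover counting error only, within 1 library.

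The 4 genes have separate known roles. Anxa1 encodes annexin A1, a calcium-dependent membrane-binding protein that dampens inflammation. Ifi27l2a is an interferon-induced gene. Dusp26 encodes a phosphatase of the dual specificity family and Tspan8 a tetraspanin, a membrane protein with 4 passes. Interferons signal through JAK kinases to switch on genes of antiviral defence and of MHC class I, the complex that shows peptides to T cells. MHC class I needs a heavy chain, beta-2 microglobulin, peptide transporters and proteasome subunits, and many small cell lung cancers have low levels of it. Rgs4, a brake on G protein signaling, and Tph1, the enzyme that starts serotonin synthesis outside the brain, were named as markers of these cells together with the 4 genes but were not part of the rule.

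On GRCm38 the 4 genes lie apart. Anxa1 (ENSMUSG00000024659) is on chromosome 19 from 20373428 to 20390944, Ifi27l2a (ENSMUSG00000079017) on chromosome 12 from 103442167 to 103443680, Dusp26 (ENSMUSG00000039661) on chromosome 8 from 31089471 to 31097047, and Tspan8 (ENSMUSG00000034127) on chromosome 10 from 115816832 to 115849893. Rgs4 (ENSMUSG00000038530) lies on chromosome 1 from 169741477 to 169747642 and Tph1 (ENSMUSG00000040046) on chromosome 7 from 46644641 to 46672537.

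Ifi27l2a supplied most of the UMIs that chose the members. It had 738 of the 1041 rule UMIs (70.9%) and was found in 125 of the 165 members, with up to 29 UMIs in a cell. Anxa1 had 235 UMIs (22.6%) in 87 members and at most 8 in a cell. Dusp26 had 34 UMIs in 22 members and Tspan8 34 UMIs in 24 members. As pooled levels, these were 2756 CPM (UMIs of a gene per 1000000 UMIs of the cells; exact Poisson 95% interval 2561 to 2962) for Ifi27l2a, 878 CPM (769 to 997) for Anxa1, and 127 CPM (87.9 to 177) for each of Dusp26 and Tspan8. These values are what the rule selected and are a description. The cells just outside and just inside the threshold differ in these genes by construction. The 106 cells with exactly 2 rule UMIs had a median of 1185 UMIs and 495 CPM of Anxa1 against 750 CPM of Ifi27l2a. The 49 cells with exactly 3 had a median of 1229 UMIs, 857 CPM of Anxa1 and 1205 CPM of Ifi27l2a. The plot of rule UMIs per cell shows no gap at the threshold.

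**Figure D1:**
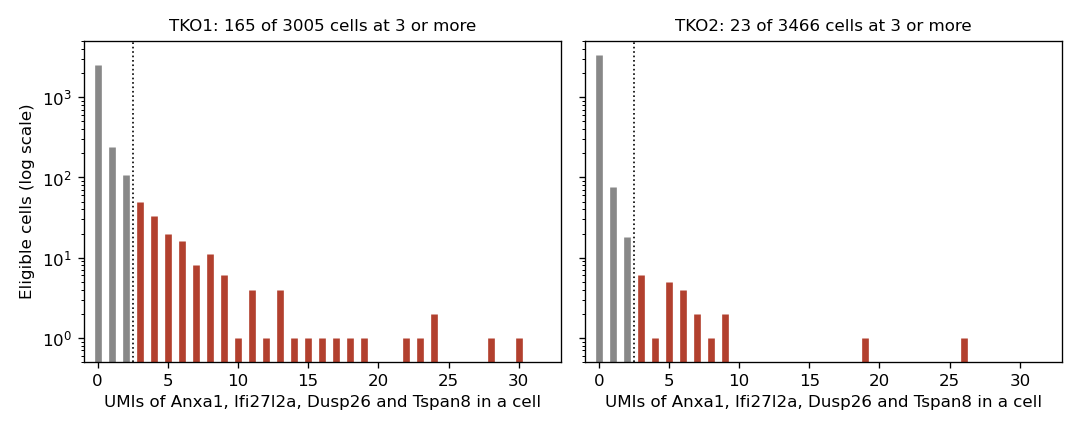
Eligible cells (log scale) by the number of UMIs of Anxa1, Ifi27l2a, Dusp26 and Tspan8 they hold, in TKO1 and in TKO2. The dotted line marks the threshold of 3 UMIs, and red lines are the members, 165 of 3005 cells in TKO1 and 23 of 3466 in TKO2. Counts decline step by step across the threshold in TKO1, where single cells reach 30 UMIs.

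The name by all of these genes covers cells that mostly held 1 of them. Of the 165 members, 93 had UMIs of a single rule gene, 67 with only Ifi27l2a, 25 with only Anxa1 and 1 with only Tspan8. Another 34 held Anxa1 and Ifi27l2a and no other, and 1 cell held all 4. At 3 or more UMIs of the gene, 101 members qualified for Ifi27l2a, 41 for Anxa1 and 3 for both, which is 2.97% of the first set and 7.32% of the second. The remaining 26 held fewer than 3 UMIs of each of these 2 genes, and 1 of them held only Tspan8. The plot of Anxa1 against Ifi27l2a shows the members lying along the 2 axes. The cells are therefore called members of the rule below, and the 101 Ifi27l2a members and 41 Anxa1 members, a split chosen after seeing the data, are given beside them.

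**Figure D2:**
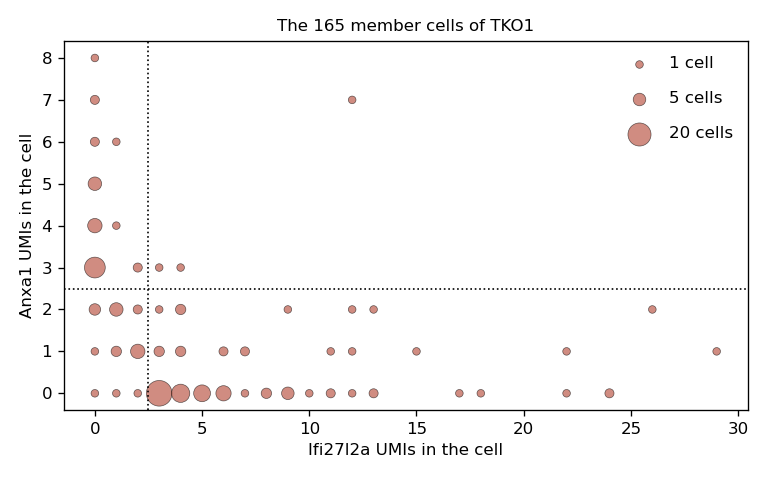
UMIs of Ifi27l2a (x axis) and of Anxa1 (y axis) in each of the 165 members of TKO1. Circle area grows with the number of cells at that pair of values, and dotted lines mark 3 UMIs. The 101 cells to the right and the 41 cells above share 3 cells.

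The 4 genes were chosen together in these data, so how often they share a cell is given only as a description. Each cell was thinned at random to 1000 UMIs, which left 2161 eligible cells and 124 members. Of the 95 cells with an Anxa1 UMI, 27.4% (exact interval 18.7 to 37.5) also had an Ifi27l2a UMI, against 7.45% (6.36 to 8.67) of the 2066 cells without Anxa1. Dusp26 was found in 8.42% (3.71 to 15.9) of the cells with Anxa1 and 0.823% (0.480 to 1.31) of those without. Tspan8 was found in 20% (6.83 to 40.7) of the 25 cells with Dusp26 and 0.796% (0.464 to 1.27) of those without. Unthinned, the share of members with a UMI was 52.7% for Anxa1 and 75.8% for Ifi27l2a, and at 1000 UMIs it was 39.5% (30.9 to 48.7) and 69.4% (60.4 to 77.3). Both genes were also found in other cells of TKO1. At 1000 UMIs, 37.9% (26.2 to 50.7) of 66 macrophage cells had Anxa1 and the same share had Ifi27l2a, and of 96 club cells 18.8% (11.5 to 28.0) and 11.5% (5.86 to 19.6). Dusp26 was in 0 of 66 macrophage cells and 0 of 96 club cells, where 3 cells would be 4.55% and 3.13%. Unthinned, 3 of 110 club cells held it. The median UMIs before thinning were 1700 in these members, 1457 in the macrophage cells and 1970 in the club cells.

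The members were slightly deeper than the zero cells, and they were neuroendocrine tumor cells by their markers. Members had a median of 1367 UMIs and 842 genes, zero cells 1200 UMIs and 767 genes. Calca, which encodes calcitonin and CGRP, was found in 156 of 165 members and 97.1% of zero cells, at 18910 CPM (18390 to 19440) and 17140 CPM (17000 to 17280). Chromogranin A (Chga) was at 911 and 902 CPM. Of 15 neuroendocrine markers with 100 or more UMIs, 0 were 2-fold higher and 0 were 2-fold lower, and the median log2 ratio was 0.02. Over all 5498 genes tested, 1.86% were 2-fold higher and 4.40% 2-fold lower, so a count of 0 among 15 is near those shares. The widest ratio among them was that of Syt1, a synaptic vesicle protein, at 0.66 (0.30 to 1.01). In macrophage cells the summed level of the neuroendocrine markers was 2497 CPM and in club cells 8809 CPM, against 25630 CPM in members and 23760 CPM in zero cells. Calca was found in 39.7% of macrophage cells and 67.3% of club cells. Mitosis genes summed to 3372 CPM in members and 2750 CPM in zero cells, a log2 ratio of 0.29 (0.19 to 0.39), with 78 of the 903 UMIs in 1 member. Of 17 measured, Hmmr, which binds hyaluronan and the spindle, was at least 2-fold higher (1.67, 0.98 to 2.31), against 1.86% of all genes. S phase genes summed to 2446 and 2419 CPM (0.02, -0.10 to 0.13). At 1000 UMIs, 39.5% (30.9 to 48.7) of members and 37.6% (35.4 to 39.9) of zero cells had 3 or more UMIs of S phase genes, and 21.8% (14.9 to 30.1) and 18.7% (16.9 to 20.6) had 3 or more of mitosis genes. The latter share was 21.3% (12.7 to 32.3) of the Ifi27l2a members and 20% (7.71 to 38.6) of the Anxa1 members, whereas the summed mitosis level was 3834 CPM (0.48, 0.36 to 0.59) and 2073 CPM (-0.41, -0.67 to -0.16).

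Against this shared neuroendocrine background, the members were set apart by genes of MHC class I and some genes of the interferon response, which were higher, and by genes of glycolysis and hypoxia, which were lower. UMIs were summed over the 165 members and over the 2497 zero cells, and 5498 genes had 100 or more UMIs over both, leaving out the 4 rule genes. Of these, 102 were at least 2-fold higher in members (1.86%) and 242 at least 2-fold lower (4.40%), and the median log2 ratio over all of them was -0.02. With edgeR TMM factors in place of totals the counts were 68 and 325. With no filter on low genes they were 2024 and 869, and against 165 zero cells of matched depth they were 9 and 10 of 1003 genes, so which direction had more genes rests on these choices. The members were selected by genes that are read in the same cells, so these differences describe the set and are not a test of it.

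MHC class I was the list with the highest share past 2-fold among those with at least 9 measured genes. Of its 16 genes, 9 were measured, and 6 of these 9 were at least 2-fold higher, against the 1.86% of all genes. B2m, beta-2 microglobulin, had 569 UMIs in members and 1563 in zero cells, or 2125 CPM (1949 to 2307) and 449 CPM (427 to 472). That is a log2 ratio of 2.24 (2.10 to 2.38), and the intervals lie far apart. It was found in 127 members, with at most 17 UMIs in 1 cell, so no single cell carried it. The heavy chain gene H2-K1 was at 889 and 350.5 CPM (log2 ratio 1.34, 1.14 to 1.54). The heavy chain gene H2-D1 was far more abundant at 4142 and 2024 CPM (1.03, 0.94 to 1.13). The immunoproteasome subunit Psmb8 had 463 and 203 CPM (1.19, 0.90 to 1.47). Psmb10, a further subunit, and Tap2, a chain of the peptide transporter, had log2 ratios of 1.34 (0.59 to 2.02) and 1.11 (0.31 to 1.84). The other 3 measured genes were under 2-fold, with 0.88 for H2-T23, 0.86 for Psmb9 and 0.58 (-0.10 to 1.19) for Tapbp. The median of the list was 1.11. H2-D1 was under 2-fold at 2 or more rule UMIs (0.86), without Ifi27l2a in the rule (0.64) and with TMM factors (0.92), and H2-K1 without Ifi27l2a (0.97). Nlrc5, the transactivator of MHC class I, had 0 UMIs in members. Heavy chain genes are near copies of each other, so reads may have been split among them.

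The interferon-induced genes were higher in part. Of 43 such genes other than Ifi27l2a, 15 were measured, and 5 were at least 2-fold higher and 0 were 2-fold lower, against 1.86% and 4.40% of all genes, with a median log2 ratio of 0.73. In cells with more than 1000 genes that median was 0.12. Ifitm3, a membrane protein that blocks viral entry, had 208 UMIs in 84 members, or 777 CPM (675 to 890) against 130 CPM (119 to 143), a log2 ratio of 2.58 (2.33 to 2.82). Irf7, a transcription factor that amplifies the response, had 131 and 27.0 CPM (2.27, 1.67 to 2.85). Isg15, a ubiquitin-like modifier, had 112 and 26.7 CPM (2.07, 1.42 to 2.67), from 14 members. Rsad2, the antiviral enzyme viperin, had 190.5 and 57.5 CPM (1.73, 1.26 to 2.18), with 10 of its 51 UMIs in 1 cell. Rsad2 was under 2-fold without Anxa1 in the rule (0.87), and Irf7 was under 2-fold without Ifi27l2a (0.56). Eif2ak2, the kinase PKR, had 1.65 (0.86 to 2.36). The other 10 ran from 0.98 for Ifit1 to -0.26 for Cmpk2, and Ifitm2, a close relative of Ifitm3, was at 553 and 592 CPM (-0.10, -0.35 to 0.14). Mx1, Iigp1 and Gbp7 were under the minimum of 100 UMIs over both groups, with 0 UMIs in members. Bst2, the interferon-induced tether of virus particles, was under the minimum of 100 UMIs, with 35 UMIs in 24 members and 33 UMIs in 31 zero cells, or 131 and 9.49 CPM (log2 ratio 3.78, 3.06 to 4.51). Of interferons, receptors and JAKs only 2 genes were measured and 0 passed 2-fold.

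The promoters of 4 genes that were higher in members are shown, to give the sequence that interferon-induced genes are known for. Promoters were searched for the core of the interferon-stimulated response element, written as GAAA followed, after any 2 bases, by GAAA, on both strands within the 250 bases before the start of the transcript. In RefSeq promoters of GRCm38.p6, 13 of the 33 interferon-induced genes with an entry held these letters (39.4%) and 3 of 14 MHC class I genes (21.4%). Of all 27025 genes with an entry 3.46% did, of the 15 genes highest in members 3 of the 13 with an entry did, and of the 15 lowest 1 of 12 did. The capitals mark the matched letters, overlapping matches run together, and in Rsad2 the match is on the opposite strand.
B2m: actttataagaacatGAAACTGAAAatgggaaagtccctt
Isg15: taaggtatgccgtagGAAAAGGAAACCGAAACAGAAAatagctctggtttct
Rsad2: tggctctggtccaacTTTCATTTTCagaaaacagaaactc
Bst2: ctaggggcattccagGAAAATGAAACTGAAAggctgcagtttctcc
These stretches are chr2:122147533-122147572 (plus strand), chr4:156200860-156200911, chr12:26456548-26456587 and chr8:71537572-71537617 (minus strand). The first match begins 139 bases before the start in B2m, 78 in Isg15, 120 in Rsad2 and 130 in Bst2. Isg15 holds 3 overlapping matches and Bst2 holds 2. Of the rule genes, Anxa1 and Tspan8 had an entry and these letters are not in either window. A match describes the letters only.

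**Figure D3:**
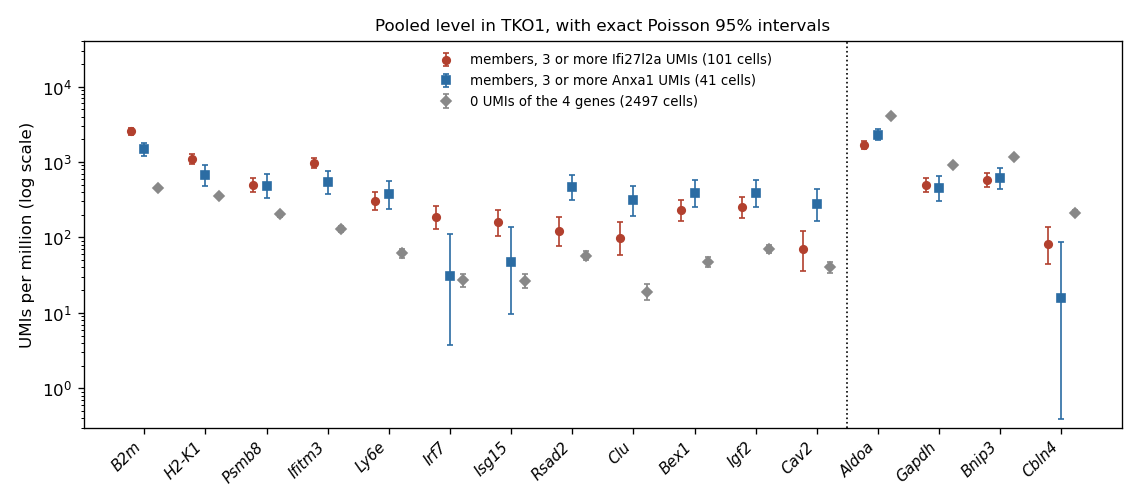
Pooled level of 16 genes in TKO1 in CPM (log scale), in the 101 members with 3 or more Ifi27l2a UMIs, the 41 members with 3 or more Anxa1 UMIs and the 2497 zero cells. Points are pooled levels and bars are exact Poisson 95% intervals. B2m was at 2550, 1481 and 449 CPM, while Irf7 in the Anxa1 members (31.2 CPM) was near the zero cells (27.0 CPM).

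The Ifi27l2a members and the Anxa1 members differed in which of these genes they held. In the 101 Ifi27l2a members, B2m was at 2550 CPM (log2 ratio to the zero cells 2.50, 2.35 to 2.66), and in the 41 Anxa1 members it was at 1481 CPM (1.72, 1.41 to 2.02). The intervals of the ratios lie apart, and both are above 0. Irf7 had 32 UMIs in the former and 2 in the latter, with log2 ratios of 2.80 (2.17 to 3.39) and 0.21 (-2.86 to 2.10). Rsad2 went the other way, at 123 CPM (1.10, 0.37 to 1.75) in the Ifi27l2a members and 468 CPM (3.02, 2.42 to 3.58) in the Anxa1 members, where 8 cells held it. By cells at 1000 UMIs, Rsad2 was found in 10.7% (4.72 to 19.9) and 13.3% (3.76 to 30.7), and these intervals overlap. Clu, the secreted chaperone clusterin, was at 99.7 CPM (2.39, 1.53 to 3.18) and 312 CPM (4.04, 3.24 to 4.78), from 10 and 6 cells. Cav2, a caveolin, had 0.80 (-0.19 to 1.65) and 2.79 (2.00 to 3.50). Markers of other lung cells also differed between the 2 sets. Alveolar type 2 markers had summed log2 ratios of 1.19 (0.44 to 1.86) in the Ifi27l2a members and 2.67 (1.94 to 3.33) in the Anxa1 members. Of the 21 UMIs behind the latter, 19 were Sftpb in 1 cell, and of the 20 behind the former, 9 were. Club markers were at 0.58 (0.22 to 0.93) and 1.18 (0.70 to 1.62), with 23 of the 122 UMIs of all members in 1 cell. Ciliated markers were at -0.54 (-0.98 to -0.12) and 0.85 (0.39 to 1.26), from 48 and 47 UMIs. Tppp3 led them with 14 of its 26 UMIs in 1 member, and 1 member held 36 of all 101 ciliated UMIs. Single cells therefore weigh heavily in these sums. Club, alveolar type 1 and 2, macrophage, T and NK cell, B cell, endothelial and fibroblast markers were also counted together, without thinning. Ciliated markers were not in this count. Of the Ifi27l2a members 44.6% held 0 UMIs of the counted markers, and of the Anxa1 members 26.8%, against 58.5% of the zero cells. Median depth was 1378, 1456 and 1200 UMIs in the same order. The part of RNA from other cell types in the differences was not tested. Over the lists, the median log2 ratio of the interferon-induced genes was 0.85 in the Ifi27l2a members and 0.27 in the Anxa1 members, and that of MHC class I was 1.29 and 1.01. The differences between the 2 sets come from 1 library and were not tested.

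At a fixed depth the MHC class I and interferon signals were spread over many members. After thinning to 1000 UMIs, a member held a median of 7 UMIs of MHC class I genes (quartiles 4 and 12, highest 32), and a zero cell held 3 (quartiles 1 and 5, highest 33). The 95th percentile of the zero cells was 8 UMIs, and 39.5% of members were above it, as were 50.7% of the Ifi27l2a members and 26.7% of the Anxa1 members. For the interferon-induced genes the medians were 4 and 2, and 20.97% of members exceeded the 95th percentile of 6. Ranges of members and zero cells overlap for both lists. B2m was found in 67.7% (58.8 to 75.9) of members and 28.8% (26.7 to 30.9) of zero cells at this depth, and in 77.0% and 35.0% unthinned. Ifitm3 was found in 39.5% (30.9 to 48.7) and 10.8% (9.44 to 12.4).

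Macrophage and club cells, which the limits were set to leave out, held more MHC class I than all members pooled. The summed MHC class I level was 13520 CPM in macrophage cells, 9135 CPM in club cells, 8317 CPM in members and 3368 CPM in zero cells. The interferon-induced genes did not have this order, at 3281 CPM in macrophage cells, 3064 CPM in club cells, 4209 CPM in members and 2299 CPM in zero cells. For MHC class I, the Ifi27l2a members were at 9661 CPM, above the club cells, and the Anxa1 members at 6530 CPM. B2m was found in 92.4% (83.2 to 97.5) of macrophage cells and 84.4% (75.5 to 91.0) of club cells at 1000 UMIs. The defining markers of other cells were low in members but above their level in zero cells for several cell types. Club, alveolar, macrophage, T and NK cell, B cell, endothelial and fibroblast markers were counted together, without thinning. Ciliated, neutrophil and tuft cell markers, among others, were not in this count. Of the members 41.8% held 0 UMIs of the counted markers, against 58.5% of zero cells. The 11 macrophage markers summed to 16 UMIs, led by Lyz2 with 5, with C1qb, C1qc, Cd68, Ear2, Marco and Mrc1 at 0, or 59.8 CPM against 30.2 CPM in zero cells and 47040 CPM in macrophage cells. The 8 club markers summed to 122 UMIs, led by Scgb1a1 with 69, or 456 CPM against 289 CPM and 264600 CPM in club cells, with Cyp2f2 and Scgb3a1 at 0. The 8 alveolar type 2 markers summed to 40 UMIs (149 and 51.5 CPM), of which Sftpb gave 28, with 19 in 1 cell. T and NK cell markers summed to 28 UMIs (105 and 10.6 CPM), of which Nkg7 gave 16, and 15 of the 28 were in 1 cell. Fibroblast markers summed to 22 UMIs (82.2 and 12.4 CPM), of which Dcn gave 19, with Col1a1, Col1a2, Col3a1, Lum, Mgp and Pdgfra at 0. Neutrophil markers summed to 8 UMIs (29.9 and 0.287 CPM), led by Cxcr2 with 4. Alveolar type 1 markers summed to 42 UMIs (157 and 80.8 CPM), of which Emp2 gave 35, and tuft cell markers to 11 UMIs (41.1 and 6.04 CPM). The 7 endothelial, 5 mesothelial and 5 erythroid markers were at 0. Among members, 4 of 165 held 10 or more UMIs over the markers counted together, against 6 of 2497 zero cells. Without these 4 members 102 genes were at least 2-fold higher and 232 lower. The part of such RNA in the remaining differences was not tested. In cells with 0 UMIs of Scgb1a1 and of the macrophage genes, the median log2 ratio was 1.04 for MHC class I and 0.62 for the interferon-induced genes.

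Several single genes outside these lists were also higher in members. Bex1, a small signaling adaptor of neural tissue, had 66 UMIs in 43 members, or 246.5 CPM against 47.2 (log2 ratio 2.39, 1.95 to 2.81). Ly6e, an interferon-induced GPI-anchored protein, had 295 and 62.1 CPM (2.25, 1.86 to 2.63) in 43 members. Igf2, the imprinted growth factor, had 269 and 69.9 CPM (1.94, 1.54 to 2.33) and was the most widely spread of these, in 53 members with at most 4 UMIs each. Upp1, uridine phosphorylase, had 131 and 31.3 CPM (2.06, 1.47 to 2.62). Clu had 131 and 19.0 CPM (2.78, 2.15 to 3.40) from only 16 members, and was also found in 42 of 110 club cells. Ubac2, Cav2 and Cdc14b completed the 15 highest, with log2 ratios of 1.77 (1.11 to 2.38), 1.60 (1.01 to 2.16) and 1.52 (0.92 to 2.07). Without Anxa1 in the rule, Cav2 (0.92) and Cdc14b (0.91) were under 2-fold.

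Few genes of the rule genes' families passed 2-fold. Of 5 measured annexins other than Anxa1, all were above 0, with a median log2 ratio of 0.67, and Anxa5 was at least 2-fold higher (82.2 and 33.6 CPM, log2 ratio 1.29, 0.56 to 1.95), and the others ran from 0.13 for Anxa6 to 0.98 for Anxa2. Intervals lay above 0 for Anxa5, Anxa7 and Anxa2. The receptors of annexin A1, Fpr1, Fpr2 and Fpr3, had 0 UMIs in members and 0 in zero cells, and 5 in macrophage cells. Of 15 measured tetraspanins, 0 were 2-fold higher and Cd82 was 2-fold lower (-1.54, -3.84 to 0.05), from 3 UMIs. The abundant Cd9 was at 8773 and 6662 CPM (0.40, 0.34 to 0.46). Of 10 measured dual specificity phosphatases, 0 were 2-fold higher, and Dusp14 was lower at -1.44 (-3.08 to -0.19), from 5 UMIs. These counts can be read against 1.86% and 4.40% over all genes.

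The genes that were lower in members were led by glycolysis and hypoxia. Of 23 such genes, 19 were measured, and 6 of these were at least 2-fold lower and 0 higher, against 4.40% of all genes, with a median log2 ratio of -0.93. Aldoa, the aldolase of glycolysis, had 477 UMIs in members and 14287 in zero cells, or 1781 CPM (1625 to 1948) and 4108 CPM (4041 to 4176). Its log2 ratio was -1.21 (-1.34 to -1.07), and 110 of 165 members held it. Eno1 (enolase) had 295 and 625 CPM (-1.08, -1.43 to -0.76), and Gapdh 459 and 925 CPM (-1.01, -1.28 to -0.75). Some alternatives took these genes under 2-fold. At 2 or more rule UMIs Eno1 was at -0.92 and Gapdh at -0.76. Without Ifi27l2a in the rule Aldoa was at -0.96 and Eno1 at -0.76, and without Anxa1 Gapdh was at -0.89. Slc2a1, the glucose transporter, had 37.4 and 95.8 CPM (-1.36, -2.43 to -0.46). Adm and Ndrg1, both hypoxia-induced, were past 2-fold from 1 and 6 UMIs. Ldha (-0.72), Mif (-0.72) and the mitophagy gene Bnip3 (-0.97, -1.21 to -0.74) were lower by less than 2-fold. Pdk1, a kinase of pyruvate dehydrogenase, was at 67.2 and 71.9 CPM (-0.10, -0.88 to 0.59). Processed copies of Gapdh, Aldoa and Eno1 exist in the genome and could share reads. The list was lower in both kinds of member. Its median was -0.87 in the Ifi27l2a members and -0.85 in the Anxa1 members, but its summed level was lower by more in the former, at -0.90 (-0.97 to -0.83) and -0.65 (-0.76 to -0.54). That sum was 9247 CPM in all members, 16860 CPM in zero cells, 5719 CPM in macrophage cells and 6303 CPM in club cells. The part of RNA from such other cells in the difference was not tested. At 1000 UMIs a member held a median of 8 UMIs of these genes (highest 33) and a zero cell 15 (highest 66), and 0 of 124 members were above the 95th percentile of the zero cells, 37 UMIs.

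Other genes among the 15 lowest belong to different groups. Cbln4, a secreted synaptic organizer, had 63.5 and 212.5 CPM (-1.74, -2.53 to -1.05). It was found in 12 of 165 members and 544 of 2497 zero cells. At 1000 UMIs, 0 of 124 members held 3 or more UMIs over Cbln4, Pipox and Dcpp1 (3 cells would be 2.42%), and 2.21% (1.59 to 3.0) of zero cells did. Ddit3, the stress factor CHOP, had 33.6 and 114 CPM (-1.76, -2.90 to -0.82), and of 12 integrated stress response genes 2 were 2-fold lower, Ddit3 and Trib3, against 4.40% of all genes. The summed level of that list had a log2 ratio of -0.58 (-0.74 to -0.43) in the Ifi27l2a members and 0.36 (0.18 to 0.54) in the Anxa1 members. Of its 638 UMIs, the Anxa1 members held 249, and 1 member held 63. At 1000 UMIs the highest cell, with 25, was an Anxa1 member, and the highest Ifi27l2a member held 12. The medians were 2 in the Anxa1 members, 1 in the Ifi27l2a members and 2 in zero cells. The value above 0 in the Anxa1 members may therefore rest on 1 cell. Cox6a2, a subunit of cytochrome oxidase, had -1.49 (-2.14 to -0.91), Sncb, beta-synuclein, -1.31 (-1.88 to -0.79), and Ass1, argininosuccinate synthase, -1.32 (-1.91 to -0.79). The cell cycle inhibitor Cdkn1c had 85.9 and 215 CPM (-1.33, -1.99 to -0.73). Egr4, 2010007H06Rik, Tubgcp3, Maged1 and Gm2694 ran from -0.99 to -1.51.

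**Figure D4:**
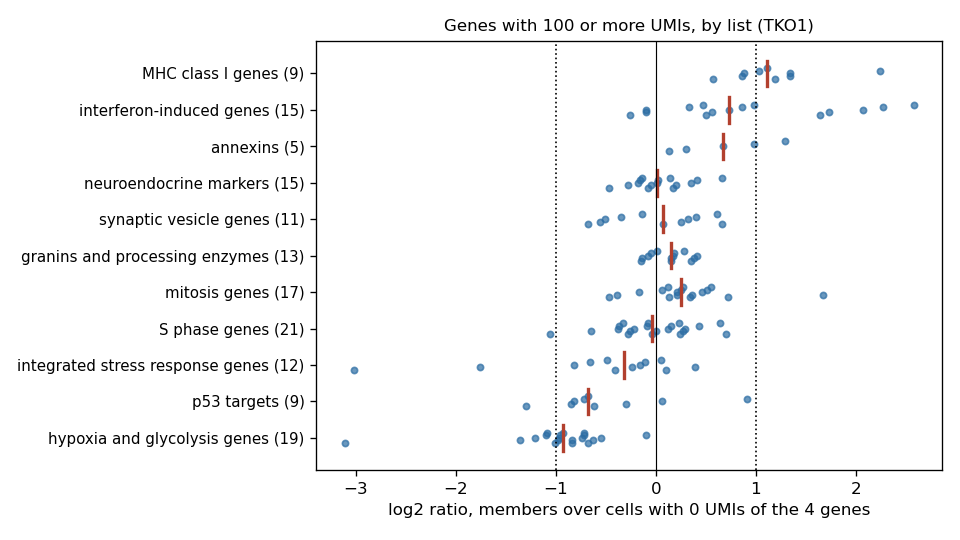
Log2 ratio of members to zero cells for each gene with 100 or more UMIs (points), by list, with the number of genes in brackets and the list median as a red line. Dotted lines mark 2-fold. MHC class I lies to the right (median 1.11), neuroendocrine markers around 0 (0.02) and glycolysis and hypoxia genes to the left (-0.93).

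The levels followed the number of rule UMIs in steps. The summed MHC class I level was 3368 CPM (3307 to 3429) at 0 rule UMIs, 4543 (4357 to 4735) at 1 to 2, 6784 (6378 to 7210) at 3 to 5 and 10360 (9779 to 10970) at 6 or more. The interferon-induced genes had 2299, 2733, 3765 and 4801 CPM in the same order. These neighbouring steps do not overlap in their intervals for either list. At the threshold itself they did overlap, with MHC class I at 5069 (4714 to 5443) at exactly 2 rule UMIs and 5591 (5047 to 6179) at exactly 3, and the interferon-induced genes at 3000 (2728 to 3291) and 3282 (2868 to 3739). The glycolysis and hypoxia genes had 16860, 11850, 9529 and 8870 CPM, and the last 2 steps overlap (9047 to 10030 and 8333 to 9432). The neuroendocrine markers had no such order, at 23760, 20610, 24050 and 27730 CPM. Median depth was 1200, 1230, 1249 and 1768 UMIs, so the cells with 6 or more were also the deepest.

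**Figure D5:**
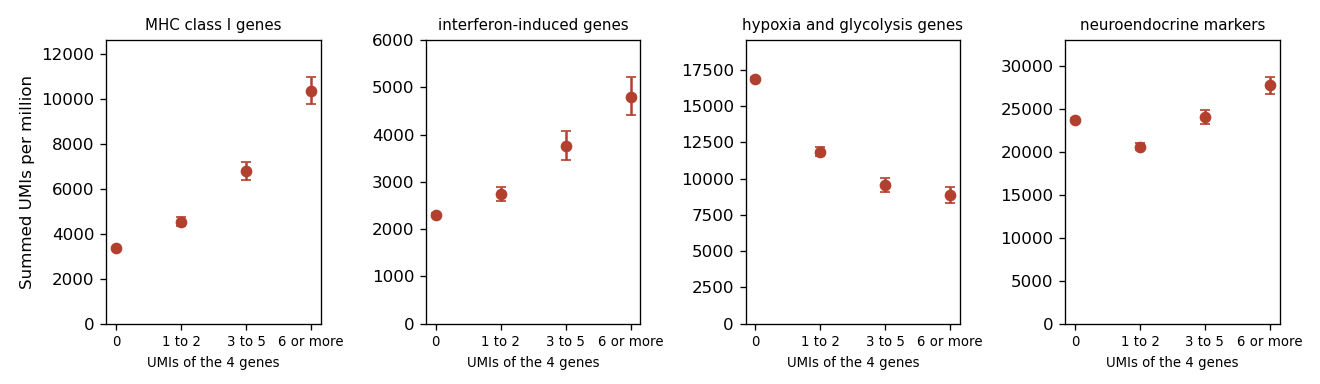
Summed level of 4 gene lists, in CPM, in eligible cells of TKO1 with 0, 1 to 2, 3 to 5 and 6 or more UMIs of the 4 rule genes (2497, 343, 102 and 63 cells). Points are pooled levels and bars are exact Poisson 95% intervals. MHC class I runs from 3368 to 10360 and the glycolysis and hypoxia genes from 16860 to 8870.

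Rgs4 and Tph1, the markers outside the rule, were held by very few members. Rgs4 had 14 UMIs in 6 members, 6 of them in 1 cell, or 52.3 CPM (28.6 to 87.7) against 11.2 CPM (7.97 to 15.3) in zero cells. Its log2 ratio was 2.22 (1.23 to 3.13), and 1.43 without the member with the highest count. At 1000 UMIs, 4 of 124 members (3.23%, 0.886 to 8.05) and 11 of 1808 zero cells (0.608%, 0.304 to 1.09) had a UMI, and these intervals overlap. The cells with 1 or 2 rule UMIs had 65.0 CPM of Rgs4 (44.5 to 91.8), no less than the members. Tph1 had 11 UMIs in 5 members, 5 of them in 1 cell, or 41.1 CPM (20.5 to 73.5) against 13.2 CPM (9.68 to 17.6). Its log2 ratio was 1.64 (0.54 to 2.61), and 0.77 without the member with the highest count. At 1000 UMIs, 1 of 124 members (0.806%) and 14 of 1808 zero cells (0.774%) had a UMI, so no difference was detectable at that depth. By cells, Rgs4 was in 4 of 101 Ifi27l2a members (3.96%) and 2 of 41 Anxa1 members (4.88%), and Tph1 in 1 and 3. Of the 11 Tph1 UMIs, 9 were in the Anxa1 members. With Anxa1 left out of the rule, the log2 ratio of Tph1 was -0.72. Of 9 measured genes of serotonin and monoamine synthesis, 0 were 2-fold higher (1.86% of all genes were) and 1 was 2-fold lower (4.40% were). The list summed to -0.29 (-0.57 to -0.03) in the Ifi27l2a members and 0.57 (0.24 to 0.89) in the Anxa1 members, as log2 ratios to the zero cells. Th, tyrosine hydroxylase, was the lower one at 22.4 and 89.1 CPM (-1.99, -3.45 to -0.85). Of 5 measured RGS genes, Rgs2 was higher at 123 and 54.1 CPM (1.19, 0.61 to 1.73) and Rgs16 lower at -1.17 (-3.07 to 0.22), from 4 UMIs.

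Members lay partly together in genes that the rule did not use. Eligible cells thinned to 1000 UMIs were placed by 10 principal components of the 1000 most variable genes, without the 4 rule genes. Of the 15 cells nearest to a member, 17.3% were members on average, against 3.30% of those nearest to a zero cell and 5.74% of all 2161 cells. Around the Ifi27l2a members, 10.3% of the neighbours were Ifi27l2a members and 2.13% Anxa1 members. Around the Anxa1 members these shares were 6.22% and 8.44%, and around zero cells 2.08% and 0.579%. Most neighbours of a member were therefore not members.

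The same rule found 23 cells in TKO2, of 3466 eligible cells (0.664%, exact interval 0.421 to 0.994), under the 50 cells needed to describe a set and so given only beside TKO1. Their rule UMIs were mainly of Anxa1 (100 UMIs in 21 cells), with 25 of Ifi27l2a, 23 of Tspan8 and 8 of Dusp26. They had a median of 1198 UMIs, fewer than the 1980 of the 3349 zero cells of TKO2. Calca was in 16 of the 23 cells (4337 CPM, 3689 to 5066) and in 3.17% of the zero cells (34.9 CPM), and Mycn, a MYC family transcription factor, was in 5 of 23 (573 CPM) and 86.1% (2884 CPM). Of the 15 genes highest in the members of TKO1, 10 had an interval above 0 in TKO2 as well, among them B2m at 1718 and 138 CPM (log2 ratio 3.64, 3.25 to 4.0) and Ifitm3 at 1282 and 21.3 CPM (5.91, 5.41 to 6.39). These 10 are not particular to the list, since many lists were higher in the 23 cells, among them neuroendocrine markers (2.28, 2.13 to 2.43), keratins and epithelial adhesion genes (2.53, 2.38 to 2.67) and metallothioneins (3.83, 3.69 to 3.96, with 423 of 461 UMIs in 1 cell). A list of genes far higher in TKO1, Calca among them, was at 6055 CPM in the 23 cells and 46.35 CPM in the zero cells (7.03, 6.78 to 7.275). Bex1 had no such interval, at 518 and 611 CPM (-0.24, -0.97 to 0.41). Isg15, Rsad2 and Igf2 had 0 UMIs in the 23 cells and 1.175, 1.306 and 1.436 CPM in the zero cells. The upper bounds of their log2 ratios were 6.73, 6.54 and 6.38, so these counts of 0 cannot show a difference. Of the 15 lowest in TKO1, 1 had an interval below 0 in TKO2, Eno1 (-1.64, -2.96 to -0.60). The glycolysis and hypoxia genes summed to 6191 CPM in the 23 cells and 10450 CPM in the zero cells (-0.76, -0.95 to -0.57). Of their 227 UMIs, 44 were in 1 cell. Other lists were lower as well, among them the Notch pathway (-1.02, -1.61 to -0.49) and S phase genes (-0.62, -0.92 to -0.33). Rgs4 had 8 UMIs in 6 cells (218 CPM, 94.2 to 430) against 0.914 CPM, and Tph1 had 1 UMI. The fibroblast marker Dcn was in 11 of the 23 cells (736 CPM, 485 to 1071) against 1.05 CPM in the zero cells, and its part in these values was not tested.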

How the data were processed

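For each tumor's library, the authors deposited a matrix of raw UMI counts with 27998 gene identifiers. The submitters' processing notes name Cell Ranger, Seurat and mm10, without versions. No read was reprocessed here. UMIs were summed over members and over zero cells, scaled to CPM, and compared as log2 ratios with exact conditional binomial 95% intervals in Python 3.11.15 (numpy 2.4.6, scipy 1.17.1, pandas 2.3.3, matplotlib 3.10.9). A gene needed 100 UMIs over both groups, and at 0 UMIs in 1 group a floor of 3 UMIs gave the bound. A call is a 2-fold difference. Shares have exact Clopper-Pearson intervals after thinning to 1000 UMIs (seed 1). TMM factors came from edgeR 4.0.16 in R 4.3.3. Positions are those of GENCODE M21. The steps were tested on simulated counts. No doublet caller was used, and cells without club or macrophage UMIs and without the 5% deepest cells stand in for it. Named genes are the rule genes, Rgs4, Tph1, the members of fixed lists, and the 15 genes each way whose interval bound nearer 0 lay farthest from 0, with 100 CPM or more in the higher group. The members, lists and tests were chosen with earlier results of these data known, so no pattern is independent support for them.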

Additional observations from a re-analysis of the deposited data

Results flagged for a closer look

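Egr4, an immediate early transcription factor, pointed opposite ways in the 2 tumors. Its log2 ratio of members to zero cells was -0.99 (-1.36 to -0.65) in TKO1, where 29 members held 70 UMIs, and 4.26 (3.22 to 5.15) in TKO2, where 4 of 23 members held 11 UMIs, 7 of them in 1 cell. Members were at 261 CPM in TKO1 and 300 CPM in TKO2, and zero cells at 519 and 15.7 CPM. The summed immediate early and heat shock genes had log2 ratios of 0.16 (0.12 to 0.20) in TKO1 and 2.315 (2.215 to 2.414) in TKO2. The difference between the tumors was not tested, since each has 1 library.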

How the results depend on the processing

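The 15 highest and the 15 lowest genes were recomputed under the alternatives, 480 values in all, of which 417 lay within the interval of the reported value, 63 outside it and 0 changed sign. The median log2 ratios of MHC class I (0.96 to 1.37) and of glycolysis and hypoxia genes (-1.10 to -0.62) kept their direction under every alternative run, and that of the neuroendocrine markers (-0.16 to 0.22) lay on both sides of 0. That of the interferon-induced genes was 1.41 with no filter on low genes and 0.12 in cells with more than 1000 genes. edgeR TMM factors shift every log2 ratio by -0.11. The member share was 9.02% at 2 or more rule UMIs, 2.76% at 5 or more, 3.76% without Anxa1 in the rule, 1.73% without Ifi27l2a, 3.52% when cells were thinned before the rule and 9.07% in cells with more than 1000 genes. The genes at least 2-fold higher and lower numbered 198 and 482 at 5 or more rule UMIs, 370 and 751 without Ifi27l2a, 538 and 802 at 30 UMIs, 2024 and 869 with no filter, 28 and 79 in cells with more than 1000 genes, and 9 and 10 against 165 zero cells of matched depth, where only 1003 genes reached 100 UMIs. The lower genes alone numbered 127 at 2 or more rule UMIs and 386 when thinned before the rule. The log2 ratio of Tph1 was -0.72 without Anxa1 in the rule, 3.29 without Ifi27l2a, 0.46 against matched zero cells and 0.47 when thinned before the rule, and the cause was not tested. B2m was found in 54.5% of members at 500 UMIs and 77.0% unthinned. The share of neighbours was 14.6% with 20 components and 17.7% with 2000 variable genes. The splits by Ifi27l2a and Anxa1, the removal of 4 members and the removal of the top cell were chosen after seeing the data. No paired analysis was possible because each tumor has 1 library. Depth limits genes of under 100 UMIs and the 23 cells of TKO2.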

Other observations

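Genes below the minimum of 100 UMIs held further differences, named here after their values were seen. S100a6, a calcium-binding protein of the S100 family, had 54 UMIs in 24 members and 29 UMIs in 17 of the 2497 zero cells. These were 202 and 8.34 CPM (log2 ratio 4.60, 3.92 to 5.30), and the ratio was 4.43 without the member with the highest count. At 1000 UMIs, 13.7% (8.19 to 21.04) of members and 0.443% (0.191 to 0.870) of zero cells had a UMI of it, against 42.4% (30.3 to 55.2) of macrophage cells and 6.25% (2.33 to 13.1) of club cells. S100a10 and S100a11 had 20 UMIs each, in 16 and 17 members, with log2 ratios of 3.50 (2.56 to 4.43) and 3.44 (2.50 to 4.35). The family was not higher as a whole, since S100a1 (-0.41, -0.78 to -0.05), S100a14 (-0.78, -1.29 to -0.31) and S100a16 (-0.28, -0.52 to -0.04) had intervals below 0 and the S100 list summed to 0.08 (-0.07 to 0.22). Rtp4, Zbp1 and H2-Q7 were higher in the Ifi27l2a members, at 3.58 (2.71 to 4.42), 2.74 (1.96 to 3.47) and 3.63 (2.56 to 4.65). Vsig2, a membrane protein of the immunoglobulin family, was spread over 20 members with at most 2 UMIs each (82.2 and 11.5 CPM, 2.84, 2.02 to 3.62), and 10 of the 41 Anxa1 members held it.

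Some of the highest ratios came from 1 cell. Ctsk had 21 UMIs in 2 members, 20 of them in 1 cell, and its log2 ratio of 4.63 was 0.25 without that cell. Sftpb had 28 UMIs in 2 members (4.60, and 2.97 without the cell with 19), Lgals3 23 UMIs in 3 members (3.90, and 1.97 without the cell with 17), and Scgb3a2 21 UMIs in 3 members (2.42, and -0.97 without the cell with 19). Cd52 had 14 UMIs in 2 members (2.11, and 0.32 without the cell with 10).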
